A study of Arabidopsis thaliana with 12 samples.

Results

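The genes described here are 74 Arabidopsis loci whose ratio of dexamethasone-treated (Dex) to mock-treated RNA was low at 72 h and averaged near 0 at 4 h and 12 h. They were chosen from 10648 measured loci, of which they make up 0.695%, by the deposited ratios themselves. A gene was kept when its log2 ratio was below 0 on all 4 arrays of 72 h, its mean over them was -1 or less, and its means at 4 h and at 12 h were both under 0.5 in size. Because all 3 time points entered the choice, the means of these genes are given as a description, with no test. On the log2 scale used throughout, a mean of -1 is a signal 2-fold lower in Dex than in mock.

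Every array compared Dex-treated with mock-treated plants of the same line, which carried 35S:HAN-GR in the Landsberg erecta (Ler) background. RNA came from whole inflorescences with flower buds of stages 1 to 9, taken 4, 12 or 72 h after 10 µM Dex or mock treatment. Each time point had 4 arrays, named biological replicates in the labels, and both treatments were hybridised to each array with the dyes swapped between replicates. The labels call the Dex channel HAN overexpression and the mock channel control. The 35S promoter is active in most tissues, so the fusion was not limited to the cells where HAN is normally made, and Dex-treated plants without the fusion are not among the samples, so that Dex itself and the fusion cannot be told apart. The 0 h collection named in the design is not used here.

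HANABA TARANU (HAN) is a transcription factor of the GATA class, a family that binds DNA through a zinc finger. It takes part in setting the boundaries between the meristem and young organs and in the growth of floral organs. Fused to the hormone-binding part of the glucocorticoid receptor (GR), a protein is kept in the cytoplasm until Dex binds and lets it enter the nucleus. No probe of the tables used here was mapped to HAN itself, so the induced gene was not checked.

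The deposited ratios carry no statement of direction, and it is not settled here. Dex over mock was taken by convention, and turning the sign would make every "lower" below a "higher". Correlations across features show only how the arrays run relative to one another. With values at the limits of the scale set missing, all 6 pairs of 72 h arrays correlated above 0, the 4 pairs of opposite labelled dye at 0.0614 to 0.407 and the 2 pairs of the same dye at 0.317 and 0.506. With those values kept, the pairs of opposite dye correlated at -0.749 to -0.486 and those of the same dye at 0.532 and 0.743. At 4 h the pairs of the same dye correlated at -0.812 and -0.821, and those of opposite dye at -0.808, -0.803, 0.869 and 0.873. On 12 h and 72 h arrays, limit values lay mostly at the upper end for Dex in Cy5 and the lower end for Cy3. At 4 h, replicate 1 (Cy5) had 4 upper and 2690 lower values, and replicate 3 (Cy3) had 3239 and 16. Whether the dye labels of these arrays are right was not tested. In bulk tissue, fewer cells of a type and less RNA per cell cannot be told apart. The 72 h arrays also spread more than the earlier ones: the median SD over 4 arrays of all loci was 0.35 at 72 h, against 0.21 at 4 h and 0.19 at 12 h. Replicate 3 of 72 h stood apart, with 49.4% of loci beyond 0.5 in either direction, against 24% to 28.3% on the other 3 arrays of that time. Without it, the 74 genes had a median mean of -1.22, the highest mean was -0.74 and 53 of them stayed at -1 or less.

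Across the 74 genes the mean at 72 h ranged from -3.58 for AT1G68230 to -1.003 for AT5G44300, with a median of -1.22. Means of -2 or less were seen in 4 genes, means between -2 and -1.5 in 12, and means between -1.5 and -1 in 58. The genes were unequal in how evenly the 4 arrays carried the low mean. In 15 genes every array read -1 or less, and in 52 every array read -0.5 or less. When each gene's lowest array was left aside, 34 still averaged -1 or less. That lowest array was replicate 1 for 8 genes, replicate 2 for 21, replicate 3 for 31 and replicate 4 for 14.

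**Figure D1:**
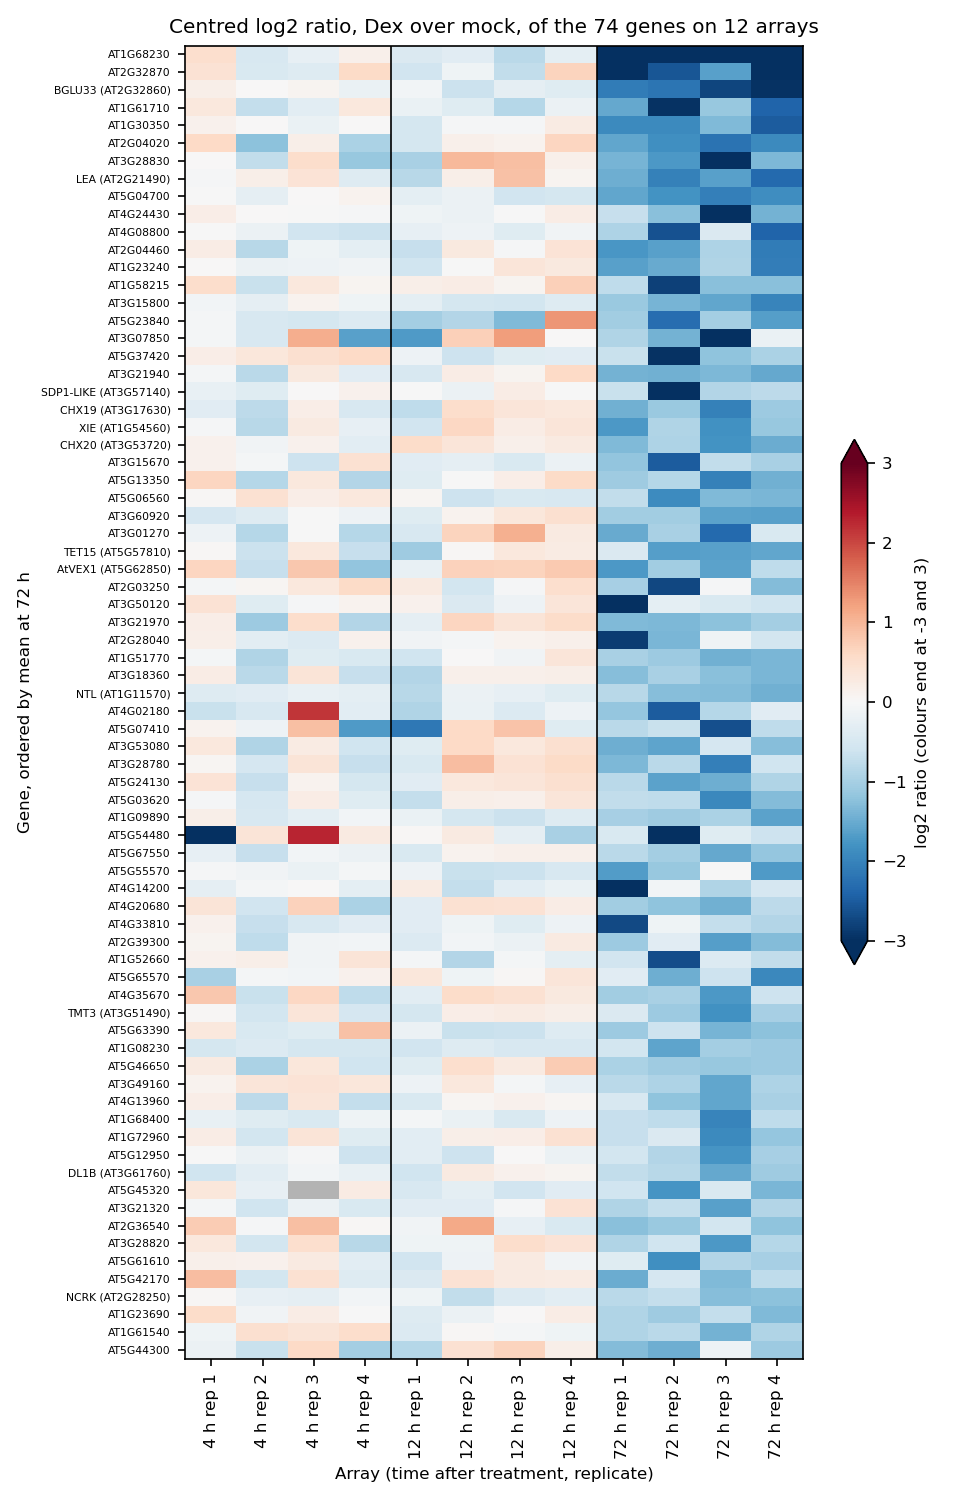
Centred log2 ratios of Dex over mock for the 74 genes (rows, ordered by their mean at 72 h) on the 12 arrays (columns, by time and replicate). Blue is lower in Dex, red is higher, grey is missing and colours end at -3 and 3. All 74 rows are below 0 on the 4 arrays of 72 h, and many hold both signs on the arrays of 4 h and 12 h.

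All 74 loci were represented by 1 probe each. By the TAIR10.1 annotation 73 are protein coding and 1, AT2G04460, is a pseudogene. The position of a probe within its gene, in an exon or a UTR, is not given in the sources used here. Only 13 of the 74 have a name beyond their locus and clone in the tables used, and the other 61 are given by locus alone, with no role. By chromosome, 15 genes lay on chromosome 1, 10 on chromosome 2, 20 on chromosome 3, 8 on chromosome 4 and 21 on chromosome 5. Chromosome 3 thus held 27% of the genes and 21.6% of all measured loci, and chromosome 1 held 20.3% and 26.1%.

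The lowest gene was AT1G68230 (chromosome 1, 25572119 to 25573447, TAIR10.1), whose log2 ratios on replicates 1 to 4 of 72 h were -3.07, -4.10, -3.14 and -4.00. Its mean was -3.58 ± 0.55 (SD, n = 4), an 11.9-fold lower signal in Dex than in mock. All 4 arrays lay within about 1 log2 unit, and neither dye orientation was set apart from the other. On the 12 h arrays it was already slightly below 0 throughout, at -0.44, -0.35, -0.82 and -0.30, while on the 4 h arrays it read 0.51, -0.48, -0.25 and 0.15. Its early mean of -0.48 at 12 h therefore sits close to the bound of 0.5 that the choice used.

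Next came a pair of adjacent genes on chromosome 2. AT2G32870 (13944538 to 13946790) read -5.59, -2.56, -1.62 and -4.21 on replicates 1 to 4 of 72 h, a mean of -3.50 ± 1.76 (SD, n = 4). The values are low on every array but differ from one another more than those of any other of the 74 genes. Its neighbour BGLU33 (AT2G32860, 13940187 to 13943883), named for the beta-glucosidases, enzymes that release glucose from glucosides, read -2.09, -2.18, -2.76 and -2.96. That is a mean of -2.50 ± 0.43 (SD, n = 4), and here the 4 arrays were close together. Only 654 bases separate the 2 genes.

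The genes on either side of this pair differed from each other. AT2G32880, the next gene after AT2G32870 and not one of the 74, had a mean of -1.48 at 72 h (limma, Benjamini-Hochberg adjusted p = 0.000169, and 0.0406 when only the 72 h arrays were fitted). It had means of 0.43 at 4 h and -0.90 at 12 h. On the other side AT2G32850 averaged 0.03 (limma, adjusted p = 0.853) and AT2G32840 averaged 0.01 (limma, adjusted p = 0.966). The low values thus covered 3 consecutive measured genes, with no call for the 2 genes before them.

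A second adjacent pair lay on chromosome 3. AT3G28830 (10831162 to 10833436) read -1.40, -1.72, -3.06 and -1.34 at 72 h, a mean of -1.88 ± 0.80 (SD, n = 4), with the lowest value on replicate 3. AT3G28820 (10827647 to 10829629), 1532 bases before it, read -0.90, -0.61, -1.71 and -0.86, and again replicate 3 was lowest. Without that array the mean of AT3G28820 was -0.79. Also among the 74, AT3G28780 (10805857 to 10808461), lay 19185 bases before this pair with 4 annotated genes between, and read -1.34, -0.82, -2.04 and -0.61.

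Around this pair, AT3G28810 averaged -0.76 at 72 h (limma, adjusted p = 0.0594) and AT3G28840 averaged -0.81 (limma, adjusted p = 0.0291). The call for AT3G28840 was lost without replicate 3 of 72 h (limma, adjusted p = 0.0972), without replicate 1 or replicate 2, and with the 72 h arrays fitted alone (limma, adjusted p = 0.107). The next gene measured, AT3G28850, lay on the other side of 0, with a mean of 0.48 (limma, adjusted p = 0.0179, and 0.276 when only the 72 h arrays were fitted). AT3G21940 (7729646 to 7731249) and AT3G21970 (7742250 to 7743659), named here after their positions had been seen, lay 11000 bases apart on the same chromosome. AT3G21940 read -1.42, -1.44, -1.34 and -1.55 at 72 h, and AT3G21970 read -1.32, -1.34, -1.24 and -1.02, so both were among the most even of the 74. AT3G21960, which lies between them, was low from the start, with means of -1.44 at 4 h, -1.79 at 12 h and -1.84 at 72 h (limma, adjusted p at 72 h = 0.00677, and 0.149 when only the 72 h arrays were fitted).

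Of the remaining genes among the 24 lowest, several had no name beyond the locus. AT1G61710 read -1.55, -2.97, -1.13 and -2.40 on replicates 1 to 4 of 72 h (mean -2.01 ± 0.83, SD, n = 4). AT1G30350 read -1.90, -1.90, -1.32 and -2.50 (mean -1.91). AT2G04020 read -1.55, -1.85, -2.22 and -1.90 (mean -1.88). Each of these 3 was below -1 on every array. AT5G04700 read -1.56, -1.80, -2.05 and -1.85 (mean -1.81 ± 0.20, SD, n = 4), the tightest of the 10 lowest genes. AT3G15800 (-1.11, -1.39, -1.57 and -1.98) and AT5G23840 (-1.05, -2.27, -1.02 and -1.66) were also below -1 on all 4 arrays. At 12 h, however, AT5G23840 already read -1.02, -0.88 and -1.32 on replicates 1 to 3, and 1.32 on replicate 4 brought its mean to -0.48. Its difference between 72 h and 12 h was not called (limma, adjusted p = 0.318). The pseudogene AT2G04460 read -1.75, -1.62, -0.93 and -2.09, and AT1G23240 read -1.62, -1.52, -0.89 and -2.08. In both, replicate 3 was the least low of the 4.

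In other genes of the 24, 1 or 2 arrays carried much of the mean. AT4G24430 read -0.70, -1.25, -3.61 and -1.43 at 72 h, with replicate 3 far below the rest. AT4G08800 read -0.93, -2.62, -0.44 and -2.41, and AT1G58215 read -0.76, -2.80, -1.26 and -1.26. AT3G15670 read -1.18, -2.50, -0.74 and -0.96, and AT3G07850 read -0.90, -1.42, -3.35 and -0.20. In these genes the low mean is an average of unlike values, and AT3G07850 nearly reached 0 on replicate 4.

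**Figure D2:**
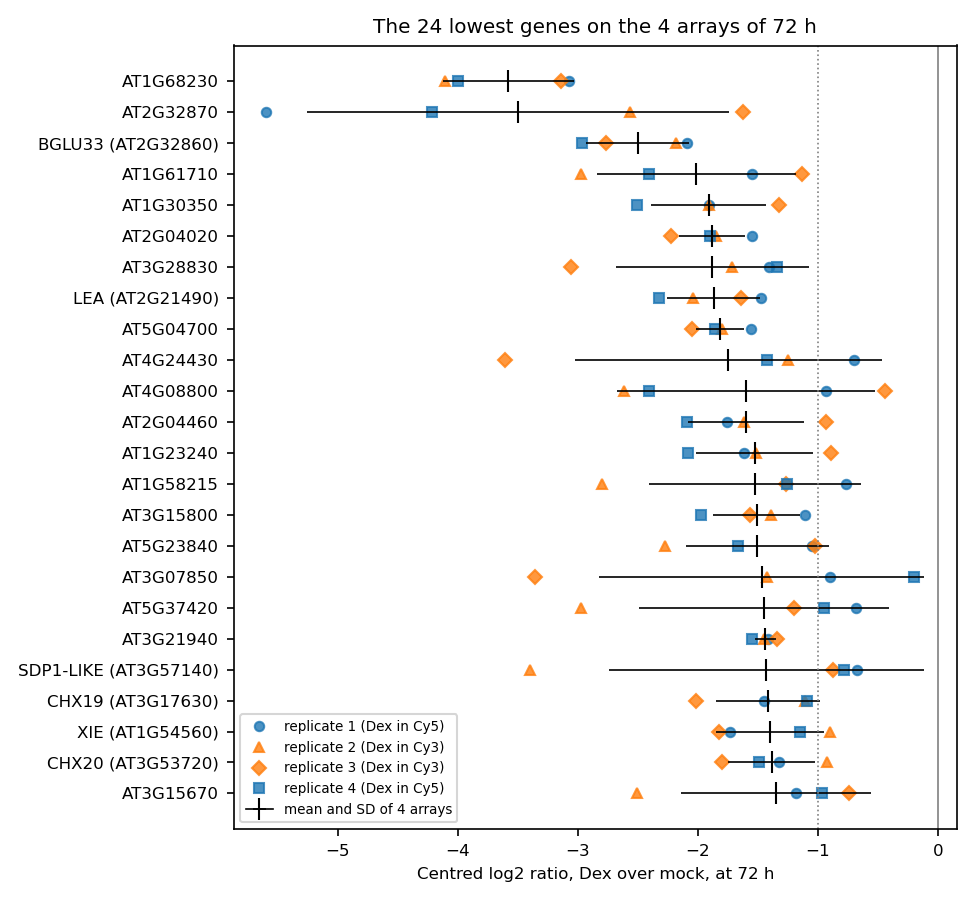
The 24 lowest genes (rows) with their centred log2 ratio of Dex over mock on each of the 4 arrays of 72 h (horizontal axis). Marker colour gives the dye that carried Dex RNA, the black tick and line are the mean and SD of 4 arrays, and the dotted line is the bound of -1. AT2G32870 runs from -5.59 to -1.62, while the 4 values of AT3G21940 lie between -1.55 and -1.34.

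The 13 genes with a name were grouped by what their products are known to do. AGL105 (AT5G37420, chromosome 5, 14840143 to 14842070) was the one transcription factor among these 13, a member of the MADS-box family, whose best known members specify floral organs. Its ratios on replicates 1 to 4 of 72 h were -0.68, -2.97, -1.197 and -0.94, a mean of -1.45 ± 1.04 (SD, n = 4), with replicate 2 well below the other 3. At 4 h it read 0.19, 0.34, 0.48 and 0.60 and at 12 h -0.14, -0.63, -0.36 and -0.34, so that all 4 early values at 4 h were above 0 and all 4 at 12 h below it. Of the 25 other AGAMOUS-like genes measured, 1 fell and 5 rose at 72 h (limma, adjusted p under 0.05, where 10.8% of all 18124 features were called lower and 9.89% higher). AGL102 was the highest of those called, at 1.07 ± 0.73 (SD, n = 4; limma, adjusted p = 0.00852), a call lost with the 72 h arrays fitted alone (limma, adjusted p = 0.111). That fit called 1 of the 25 higher (1.38% of all features) and 0 lower (2%), and the 1 was not called in the fit of all arrays. These families were put together from gene names after the 74 genes were known.

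Both cation/H+ exchangers among the 74 lay on chromosome 3. Proteins of this family exchange potassium or sodium for protons across inner membranes, many of them are made in pollen, and CHX20 is known from guard cells. CHX19 (AT3G17630, 6028688 to 6031986) read -1.45, -1.10, -2.02 and -1.09 at 72 h, and CHX20 (AT3G53720, 19905591 to 19910244) read -1.32, -0.93, -1.80 and -1.49. The means were -1.42 ± 0.43 and -1.38 ± 0.36 (SD, n = 4 each), with replicate 3 lowest in both. Before 72 h they differed: CHX20 was above 0 on all 4 arrays of 12 h, at 0.54, 0.36, 0.15 and 0.28, whereas CHX19 read -0.75, 0.53, 0.37 and 0.32 there. The other 2 exchangers measured moved the other way at 72 h, CHX23 with a mean of 1.09 (limma, adjusted p = 0.00322) and CHX15 with a mean of 0.49 (limma, adjusted p = 0.00757). Neither passed with the 72 h arrays fitted alone (limma, adjusted p = 0.137 for CHX23 and 0.16 for CHX15).

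Sugar transporters gave 2 of the 74. AtVEX1, also called SWEET5 (AT5G62850, chromosome 5, 25229938 to 25231844), belongs to the SWEET family of sugar carriers, and its name refers to the vegetative cell of pollen. It read -1.72, -1.04, -1.60 and -0.76 at 72 h, a mean of -1.28 ± 0.45 (SD, n = 4). At 12 h it averaged 0.48, close to the upper bound of the choice, with -0.22, 0.69, 0.67 and 0.78 on the 4 arrays. TMT3 (AT3G51490, chromosome 3, 19104885 to 19107797), of the carriers that load sugars into the vacuole, read -0.44, -1.08, -1.82 and -0.99 at 72 h. Its mean was -1.08 ± 0.57 (SD, n = 4), and -0.84 without replicate 3.

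Relatives of these transporters were measured too. Of the 13 other SWEET genes, 4 fell at 72 h (limma, adjusted p under 0.05; 10.8% of all features) and 9 did not pass, and all 13 means lay between -2.30 and -0.08. SWEET10 was the lowest, at -2.30 ± 0.44 (SD, n = 4; limma, adjusted p = 2.15e-05, and 0.03 when only the 72 h arrays were fitted, where it was the 1 SWEET gene outside the 74 to pass), but it was already at -1.16 at 12 h and so is not among the 74. Of the 2 other tonoplast monosaccharide transporters, TMT2 rose, with a mean of 0.88 (limma, adjusted p = 0.00271, and 0.11 when only the 72 h arrays were fitted), and TMT1 averaged 0.17 (limma, adjusted p = 0.458). By words in gene names, transporters were 29 of the measured loci, of which 10 fell and 2 rose at 72 h (limma, adjusted p under 0.05; 10.8% and 9.89% of all features), with a median of -0.38. With the 72 h arrays fitted alone, 1 of the 29 was lower (2% of all features) and 1 higher (1.38%).

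XIE and DL1B belong to the machinery that moves and shapes membranes. XIE (AT1G54560, chromosome 1, 20371469 to 20380156) is a class XI myosin, a motor that moves organelles along actin and is known to act in pollen tube growth. It read -1.73, -0.90, -1.82 and -1.15 at 72 h, a mean of -1.40 ± 0.45 (SD, n = 4). The 3 other myosins measured averaged -0.56 for VIIIB (limma, adjusted p = 0.0231, and 0.285 when only the 72 h arrays were fitted), -0.47 for XIC (limma, adjusted p = 0.0562) and -0.37 for XIJ (limma, adjusted p = 0.207), all of them below 0. DL1B (AT3G61760, chromosome 3, 22860298 to 22864229), a dynamin-like protein of the kind that pinches membranes, read -0.73, -0.84, -1.53 and -1.07, a mean of -1.04 ± 0.35 (SD, n = 4).

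LEA (AT2G21490, chromosome 2, 9205990 to 9207125) is a dehydrin, one of the hydrophilic proteins that plants make in drying seeds and under water loss. Its ratios at 72 h were -1.47, -2.04, -1.64 and -2.32, all under -1, with a mean of -1.87 ± 0.38 (SD, n = 4). Before then it had no settled sign, and at 12 h it read -0.84, 0.17, 0.88 and 0.08. Of the 6 other dehydrin and LEA genes measured, 2 rose at 72 h (limma, adjusted p under 0.05, against 9.89% of all features) and 4 did not pass. LEA4-5 rose the most, with a mean of 1.62 (limma, adjusted p = 0.00125, and 0.0657 when only the 72 h arrays were fitted). The other was AT1G54410, with a mean of 0.78 (limma, adjusted p = 0.0132, and 0.175 when only the 72 h arrays were fitted). BGLU33, described above, stood among relatives of both directions: of the 13 other beta-glucosidases 3 fell and 5 rose (10.8% and 9.89% of all features). With the 72 h arrays fitted alone, BGLU44 passed as lower (mean -1.82, 2% of all features) and BGLU45 as higher (mean 1.37, 1.38% of all features). Both had early means on the same side of 0, BGLU44 at -1.60 and -2.75 and BGLU45 at 1.09 and 1.92, at 4 h and 12 h.

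SDP1-LIKE (AT3G57140, chromosome 3, 21150242 to 21153636) is named for its likeness to SDP1, a lipase that breaks down stored oil in seedlings. Its values at 72 h were -0.67, -3.39, -0.87 and -0.78, so the mean of -1.43 ± 1.31 (SD, n = 4) rests largely on replicate 2. TET15 (AT5G57810, chromosome 5, 23424268 to 23425647), a tetraspanin, a small membrane protein with 4 spans, read -0.42, -1.65, -1.63 and -1.55, and here replicate 1 was the one apart. Of the 13 other tetraspanins 2 fell and 3 rose at 72 h (limma, adjusted p under 0.05, against 10.8% and 9.89% of all features). TET5 as lower (2% of all features) and TET9 as higher (1.38%) also passed with the 72 h arrays fitted alone. TET5 was the lowest, at -2.42 ± 0.31 (SD, n = 4; limma, adjusted p = 1.04e-06, and 0.03 when only the 72 h arrays were fitted), and had been at -1.14 at 4 h.

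The last 2 named genes had small but even values. NTL (AT1G11570, chromosome 1, 3883167 to 3884129), named for likeness to NTF2, a factor of nuclear import, read -0.83, -1.28, -1.31 and -1.44 at 72 h, a mean of -1.22 ± 0.27 (SD, n = 4). NCRK (AT2G28250, chromosome 2, 12042348 to 12046616), a receptor-like kinase, read -0.81, -0.72, -1.27 and -1.23, a mean of -1.01 ± 0.28 (SD, n = 4). Both were below 0 on all 4 arrays of 12 h as well, NTL at -0.82, -0.19, -0.25 and -0.37 and NCRK at -0.14, -0.73, -0.42 and -0.32. Families were looked up by name for all of the 13 but SDP1-LIKE, NTL and NCRK. In them 77 other genes were measured, of which 11 fell and 18 rose at 72 h (limma, adjusted p under 0.05; 10.8% and 9.89% of all features). With the 72 h arrays fitted alone, 5 of these 29 calls passed.

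The fit of all 12 arrays called 69 of the 74 genes lower at 72 h (limma, adjusted p under 0.05; 10.8% of all features), which the choice of the genes on the same values largely fixes. When only the 72 h arrays were fitted, so that the tighter early arrays no longer set the spread, 25 of the 74 were called (2% of all features). The 5 genes not called in the fit of all arrays were AT3G07850, AT3G50120, AT4G02180, AT5G07410 and AT5G54480. AT3G50120 read -3.59, -0.28, -0.45 and -0.60, and AT5G54480 read -0.45, -3.15, -0.37 and -0.62. AT4G02180 read -1.17, -2.50, -0.86 and -0.33, and AT5G07410 read -0.80, -0.66, -2.63 and -0.75. In each of these, 1 array was at least 1 log2 unit under the next.

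The bound of -1 fell within a run of closely spaced means. The genes just inside were AT5G44300 at -1.003, AT1G61540 at -1.004 and AT1G23690 at -1.005, and those just outside were AT5G38070 at -0.999, AT2G30630 at -0.998 and AT1G65210 at -0.982. AT1G23690 read -0.91, -1.06, -0.72 and -1.33, AT1G61540 read -0.89, -0.81, -1.41 and -0.90, and AT5G44300 read -1.31, -1.46, -0.15 and -1.10. Outside the bound, AT2G30630 read -0.71, -0.61, -1.56 and -1.11, which is much like AT1G61540 just inside it.

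A measure the choice did not use is the reading on an array left out of it. The rule was applied to 3 of the 4 arrays of 72 h, with all 8 earlier arrays, and the genes it gave were read on the fourth. On replicate 1, 89 of the 110 genes with a value read below 0 (80.9%), with a median of -0.68, against 50.1% of all loci. On replicate 2 it was 72 of 85 (84.7%), with a median of -0.90, against 49.6% of all loci. On replicate 3 it was 68 of 87 (78.2%), with a median of -0.60, against 46.7%, and on replicate 4 it was 76 of 82 (92.7%), with a median of -0.99, against 50.6%. The lists were thus mostly, though not wholly, below 0 on the array that had not chosen them, and each median was nearer to 0 than on the 3 choosing arrays, where the medians lay between -1.27 and -1.21.

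**Figure D3:**
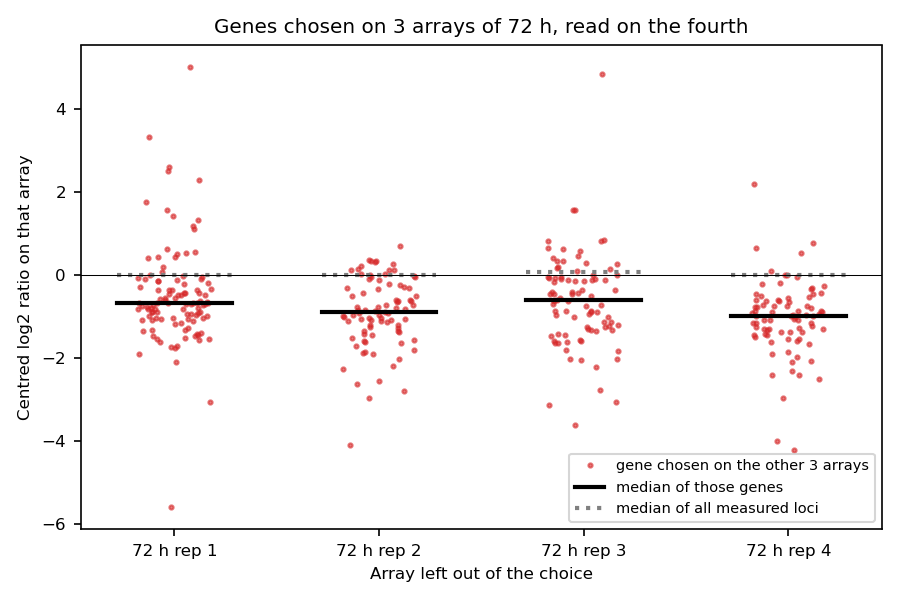
Centred log2 ratios on each 72 h array (vertical axis) of genes chosen with the other 3 arrays of 72 h (points, 1 per gene). Black bars are their medians, -0.68, -0.90, -0.60 and -0.99 for replicates 1 to 4, and dotted bars are the medians of all measured loci, near 0.

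Left-out readings were also uneven in their extremes. On replicate 1, 11 of the 110 genes read above 1, against 0 of 85 on replicate 2, 3 of 87 on replicate 3 and 1 of 82 on replicate 4. Over all 4 arrays 305 of 364 readings (83.8%) were below 0. Of the 74 genes, 34 were chosen whichever array of 72 h was left out, and 40 dropped out with at least 1 of them. Among the 24 lowest, AT3G07850, AGL105, SDP1-LIKE and AT3G15670 were the ones that dropped out.

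The name "falling at 72 h only" held for the means, which the choice had bounded, but less so for single arrays. Those bounds also limited the early calls in either direction, so their counts are given as a description. On the 12 h arrays 6 of the 74 genes were called lower (limma, adjusted p under 0.05; 10.5% of all features): AT5G04700, AT3G15800, NTL, AT1G09890, AT1G08230 and NCRK. On the 4 h arrays 1 was called (6.87% of all features), AT1G08230, whose 8 early values all lay between -0.57 and -0.39. None of the 74 was called higher at 4 h (4.19% of all features) or at 12 h (5.34%). The ratios of AT1G08230 at 72 h were -0.56, -1.59, -1.02 and -1.08, so that replicate 1 of 72 h lay within the range of the early arrays. The difference between 72 h and 12 h was called for 31 of the 74 (1.4% of all features), and that between 72 h and 4 h for 32 (3.56%), both among values the choice had used.

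Near the early bounds, AT1G08230 had means of -0.50 at 4 h and -0.48 at 12 h, and AT5G55570 averaged -0.49 at 12 h. AT3G16430, named JAL31 in the annotation, was left out by a mean of -0.503 at 4 h, with a mean of -1.41 at 72 h. AT2G35640 was left out by a mean of -0.505 at 12 h. Of the 273 loci that were below 0 on all arrays of 72 h with a mean of -1 or less, the 74 made up 27.1%, and 127 others had means of -0.5 or less at both earlier times.

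On single early arrays the 74 genes were not flat. The median SD over the 4 arrays was 0.36 at 4 h and 0.36 at 12 h for the 74 genes, against 0.21 and 0.19 for all loci. Only 7 of the 74 (9.46%) stayed within 0.5 on all 8 early arrays, against 60.8% of the 8316 loci with early means under 0.5 and 32.6% of the 138 genes that met the same rule with the sign turned. A value of 0.5 or more and another of -0.5 or less were both present among the early arrays of 29 genes (39.2%). The share was 11.4% of all loci, 8.47% of those with early means under 0.5 and 14.5% of the sign-turned genes. The early means near 0 therefore average values of opposite sign in many of these genes.

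The 7 that did stay within 0.5 were AT4G24430, SDP1-LIKE, AT3G60920, AT3G50120, AT2G28040, AT3G49160 and AT1G68400. AT3G60920 (chromosome 3, 22503328 to 22513244) was the most even of them at 72 h, at -1.05, -1.03, -1.60 and -1.63. AT2G28040 read -2.86, -1.36, -0.14 and -0.55 there, with replicate 1 far below the others. AT3G49160 read -0.82, -0.92, -1.57 and -0.93 and AT1G68400 read -0.68, -0.77, -1.98 and -0.76, each with replicate 3 apart. Of the 7, only AT3G60920 was below -1 on all 4 arrays.

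**Figure D4:**
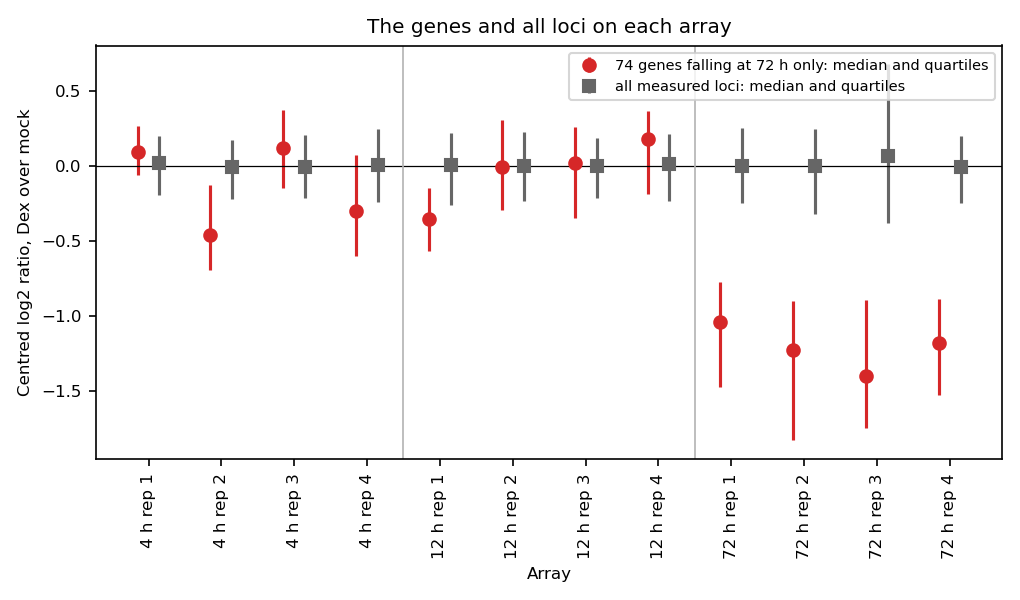
Median and quartiles of the centred log2 ratio of Dex over mock on each of the 12 arrays, for the 74 genes (red) and for all measured loci (grey). The medians of the 74 genes lie between -1.40 and -1.04 at 72 h, and on the earlier arrays they range from -0.46 on replicate 2 of 4 h to 0.18 on replicate 4 of 12 h.

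The signs on the early arrays were shared. On replicate 2 of 4 h, 62 of the 74 genes read below 0 (median -0.46), against 51.3% of all loci, and on replicate 1 of 12 h it was 66 (median -0.35), against 49.4% of all loci. Replicate 3 of 4 h (median 0.12) and replicate 4 of 12 h (median 0.18) leaned the other way, with 30 of 73 and 29 of 74 below 0. In 22 genes (29.7%) one order of signs held: below 0 on replicates 2 and 4 of 4 h and on replicate 1 of 12 h, and above 0 on replicate 3 of 4 h and on replicates 2, 3 and 4 of 12 h. That order was picked after the values had been seen and has no test. It was present in 1.44% of all loci, in 1.82% of those with early means under 0.5, and in none of the 138 genes of the sign-turned rule.

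Those 22 genes included CHX19, XIE, TET15, AtVEX1 and TMT3 among the named ones. Among the rest were AT2G04020, AT3G28830, AT3G28780, AT3G07850, AT3G21940, AT3G21970, AT3G18360 and AT5G46650. Their medians at 4 h were 0.20, -0.70, 0.37 and -0.69 on replicates 1 to 4, and at 12 h -0.48, 0.46, 0.31 and 0.34. In the other 52 genes the medians were nearer to 0, at 0.07, -0.27, -0.04 and -0.09 at 4 h and -0.31, -0.17, -0.13 and -0.12 at 12 h.

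At 72 h the 22 genes had medians of -1.30, -1.15, -1.61 and -1.09, and the other 52 genes had medians of -0.99, -1.32, -1.29 and -1.28. Replicate 3 was the lowest array for 13 of the 22 and for 18 of the 52. The median of the gene means was -1.204 for the 22 and -1.22 for the 52, and without replicate 3 it was -1.14 and -1.24. AT5G46650 showed the contrast most plainly: it read 0.28, -0.94, 0.33 and -0.59 at 4 h and -0.35, 0.50, 0.26 and 0.75 at 12 h, but -0.95, -1.07, -1.15 and -1.08 at 72 h, with an SD of 0.08 that was the smallest of the 74. AT3G07850 had the widest swings of the 22, from -1.70 on replicate 1 of 12 h to 1.25 on replicate 3.

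Of the 3 pollen markers measured, none of them among the 74, VGD1 came nearest to this order of signs. VGD1, a pectin methylesterase of pollen tubes, read -0.08, -0.47, 0.50 and -0.87 at 4 h and -0.52, -0.05, 0.62 and 0.06 at 12 h, which matches the order on 6 of the 7 arrays that define it. ANX1 matched it on 5 of the 7 and AT1G49490 on 2 of the 7. Outside the pollen list COR47, of the handling stress list, matched it on 5 of the 7, so that such matches were not limited to pollen markers. How many of all loci match on 5 or 6 of the 7 arrays was not counted, so nothing is read from these matches. At 72 h VGD1 read -0.68, -0.50, -1.95 and -0.45, a mean of -0.90 (limma, adjusted p = 0.038), with replicate 3 far below the others. Without replicate 3 the mean was -0.54 and the call was lost (limma, adjusted p = 0.171). It was also lost with the 72 h arrays fitted alone (limma, adjusted p = 0.185) and without replicate 1 or replicate 4 of 72 h.

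**Figure D5:**
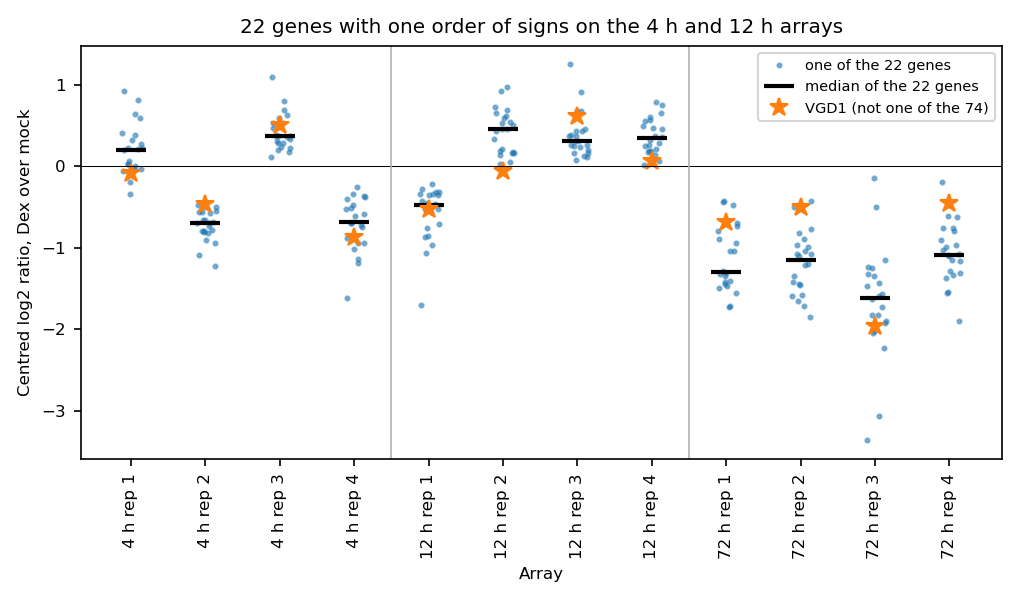
Centred log2 ratios of Dex over mock on the 12 arrays for the 22 genes with one order of signs at 4 h and 12 h. Blue points are the genes and black bars their medians. Orange stars are VGD1, which is not one of the 74 and came nearest to that order of the 3 pollen markers measured. Medians swing from -0.70 to 0.46 on the early arrays and lie between -1.61 and -1.09 at 72 h.

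Other cell types were followed with lists of marker genes, few of which were measured. None of the 74 was on any list. Of 9 pollen markers 3 were measured, and beside VGD1 these were AT1G49490 with a mean of 0.27 (limma, adjusted p = 0.171) and ANX1 with -0.08 (limma, adjusted p = 0.735). Of 12 markers of the tapetum and anther 3 were measured, of which AMS fell, with a mean of -0.67 (limma, adjusted p = 0.000469), and EMS1 fell, with -0.63 (limma, adjusted p = 0.0065), while SPL averaged -0.09 (limma, adjusted p = 0.499). Neither AMS nor EMS1 passed with the 72 h arrays fitted alone (limma, adjusted p = 0.0818 and 0.179). The part of anther or pollen cells in the values of the 74 genes was not tested.

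Of the remaining lists, INO of the ovule fell and SPT of the carpel rose, RBE of the petal rose with a mean of 1.13, and PORB of green tissue fell with a mean of -0.66 (limma, adjusted p under 0.05 for each). With the 72 h arrays fitted alone RBE still passed (limma, adjusted p = 0.046), and INO, SPT and PORB did not (limma, adjusted p = 0.0643, 0.276 and 0.108). RBE and PORB did not speak for their lists. In the fit of all arrays, PTL of the petal and stamen list averaged -0.01 (limma, adjusted p = 0.957). ROXY1 of the same list averaged -0.26 (limma, adjusted p = 0.143). LHCB4.1, listed with PORB for sepal and leaf, averaged -0.48 (limma, adjusted p = 0.225) and was not called either. Of the 2 measured genes of the handling stress list, COR47 rose with a mean of 0.57 (limma, adjusted p = 0.0213, and 0.11 when only the 72 h arrays were fitted) and KIN2 averaged 1.12 (limma, adjusted p = 0.0611). The meristem marker CLV3 had unlike values, between -3.76 and 0.78, and none of the 4 vascular markers was measured. Mature pollen forms in buds older than the stages named in the labels. Whether the samples held older buds or pollen was not tested, so nothing is read from the stages about pollen cells.

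Function groups, formed from words in gene names only, placed few of the 74. The group of transcription factors had 61 measured loci, of which AGL105 was the 1 among the 74, and 3 of the 61 fell and 10 rose at 72 h (limma, adjusted p under 0.05; 10.8% and 9.89% of all features). No gene of the 74 fell in the group for the cell wall (42 measured, 7 lower and 13 higher), for redox and secondary metabolism (132 measured, 23 lower and 17 higher) or for proteolysis (68 measured, 6 lower and 9 higher). With the 72 h arrays fitted alone, the counts lower and higher were 0 and 1 for transcription factors, 2 and 5 for the cell wall, 6 and 3 for redox and secondary metabolism, and 2 and 0 for proteolysis. Of all features, that fit called 2% lower and 1.38% higher. Since 61 of the 74 carry no name, these counts leave most of them unplaced.

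The dye that carried Dex RNA was no criterion of the choice, but its term was fitted on the ratios that chose the genes, so nothing is read from its share. None of the 74 genes, and none of the 18124 features, passed the test of the dye term (limma, adjusted p under 0.05; 0% of features). At an unadjusted p under 0.05, 1 of the 74 (1.35%) and 1331 of all features (7.34%) were counted. The term was a single dye difference shared by all 12 arrays. These include replicates 1 and 3 of 4 h, whose limit values ran against their dye labels. No test of the dye at 72 h alone is given.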

How the data were processed

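The deposited values are log2 ratios of the 2 channels of each of 12 arrays. RNA amplification by in vitro transcription came before dye coupling, per the labels' protocols. How the authors corrected background, normalised, centred and directed these ratios is not given in the sources used here. Extreme log2 values in the deposited table match ratios of 100 and 0.01, and 9.43% to 17.2% of an array's values sat there; as bounds they were set missing. No column lacked a sample (0). Depth is unknown for ratios, so the number of arrays limits the precision.

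Of 26540 rows, 450 controls and blanks were left out. Of 26090 gene probes, 13954 were mapped to a locus, 13912 of them by gene ID to RefSeq TAIR10.1. Column medians ran from -0.28 to 0.13. Arrays were centred on their median over probes with at least 3 values per time point, probes of a locus were averaged, and 18124 features were fitted in R 4.3.3 with limma 3.58.1 (a mean per time point and a dye term, eBayes, Benjamini-Hochberg adjustment over all features), checked on simulated data. All time points share 1 estimate of the spread. In simulated data with the larger spread of the 72 h arrays, this fit called more unchanged features at 72 h than its threshold allows, so for genes outside the list the outcome with the 72 h arrays fitted alone is given too. The labels say biological replicates and no more, so p-values measure the spread between these samples.

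The genes and all lists were chosen with earlier results of these data known. Named genes were the 24 lowest by 72 h mean, the 3 lowest of each function group, every transcription factor, the 3 nearest to the -1 bound on either side and genes with at most 1 annotated gene between them. Others are named because the annotation names them or because of their values. Function groups used symbols and synonyms, since the tables hold no descriptions, and short words were matched whole. Promoter motifs and protein likeness were not analysed here. Alternatives covered limit values, centring, filters, bounds, single arrays, dye term, replicate block, 72 h alone and array weights. The deviations of same-numbered arrays of 4 h and 12 h correlated at 0.182 to 0.318 across features. However, replicates 1, 2 and 4 of 4 h matched replicates 4, 3 and 1 of 12 h best, and only replicate 3 matched its own number. Against 72 h the same-numbered correlations were -0.292 to -0.0879, so the replicate numbers were not taken to pair samples.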

Additional observations from a re-analysis of the deposited data

Results flagged for a closer look

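In 9 of the 74 genes 1 array of 72 h lay far from the other 3, by Dixon's test at its 95% critical value for 4 values, which chance alone passes in about 1 of 20 groups of unselected values. The same values chose the genes, so that rate does not apply to the 9. AT3G50120 read -3.59 on replicate 1, with the other 3 arrays between -0.60 and -0.28. SDP1-LIKE read -3.39 on replicate 2, with the others between -0.87 and -0.67. AT5G54480 read -3.15 on replicate 2, with the others between -0.62 and -0.37. AT1G52660 read -2.66 on replicate 2, with the others between -0.73 and -0.41. AT5G07410 read -2.63 on replicate 3, AT1G68400 read -1.98, AT3G49160 read -1.57 and AT1G61540 read -1.41, all on replicate 3 and all the lowest of the 4. In each of the genes named so far here a single array took the mean under -1. The lowest array did so in all but 34 of the 74 genes. TET15 was the exception, since its replicate 1, at -0.42, was the highest, with the others between -1.65 and -1.55.

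Outside the 74, the pollen marker VGD1 read -1.95 on replicate 3 of 72 h, with the other arrays between -0.68 and -0.45. Altogether 10 of the 85 genes examined were picked out, 2 on replicate 1, 3 on replicate 2, 5 on replicate 3 and 0 on replicate 4. Replicate 3 is also the array on which all loci spread most.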

How the results depend on the processing

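The list of 74 depended on its own bounds and on the limit values. It held 116 genes with limit values kept (64 of the 74 among them), 144 with a mean of -0.8 or less, 41 with -1.2 or less, 38 with early means under 0.3 and 122 with no condition on single arrays. Leaving out 1 array gave 65 to 117 genes, the most without replicate 1 of 72 h, and 53 of the 74 were kept without replicate 3 of 72 h. The other settings gave 58 to 97 genes. Calls at 72 h in either direction numbered 3756, with 613 from the 72 h arrays alone, 6542 with array weights and 2448 to 3839 with 1 array left out (2448 without replicate 4 of 72 h). Left-out readings below 0 were 83.8%, and 67.9% with limit values kept. The replicate block, used although the numbers were not taken as a pairing, gave 3078 calls and 65 of the 74 genes. The causes of these shifts were not tested. The tables of 3 to 4 values per time point limit what can be told apart at 72 h.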

Other observations

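Among 7476 unnamed probes that were tested, 65 met the numbers of the rule for genes low at 72 h alone. They are mapped to no locus here and were not added to the 74. With the sign turned, the rule gave 138 loci, high at 72 h alone, whose median SD over the 4 arrays of 72 h was 0.76, against 0.49 for the 74 genes.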
